A study of Mus musculus with 18 samples.

Results

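The RNA levels of 10 endothelial genes were followed through normal livers, non-tumour livers and liver tumours of wild-type (WT) mice and of mice with a global deletion of the microRNA cluster miR-181ab1 (GKO). The genes were chosen by name. Stab1, Stab2, Lyve1, Clec4g, Fcgr2b and Oit3 are markers of the sinusoidal endothelium of the liver, and Plvap, Cd34, Vwf and Pecam1 mark capillary endothelium or endothelium in general. They were 10 of the 54838 genes in the expression table. The rule that picked them used names and no threshold on a value. Other endothelial genes and markers of other liver cells, fixed as lists by name, are given beside them.

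Bulk RNA-seq was done on 18 mouse samples in 6 groups of 3. All mice were C57BL/6 and 36 weeks old. WT tumours, WT non-tumours, GKO tumours and GKO non-tumours came from mice given diethylnitrosamine (DEN, a liver carcinogen) at 25 mg/kg on postnatal day 12, and the WT and GKO normal livers came from mice without DEN. GKO mice lacked Mir181a-1 and Mir181b-1 in every tissue, so that endothelial cells, hepatocytes and blood cells all carried the deletion, and the controls were littermates, which the study describes as floxed mice without Cre or mice with Cre alone. Which tumour and non-tumour sample shared a mouse is not in the labels, and samples are taken here as separate. Values are TPM, a read count per transcript length brought to one total for all samples. A level is therefore a share of its sample's total, and changes in abundant genes shift the shares of the others. The main test made no correction for this, and quantile normalization was tried as an alternative. The libraries held 11924989 to 20751460 reads on genes, with a median of 16973842.5, as recovered from TPM and gene length.

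The sinusoids of the liver are lined by a specialised endothelium. Its cells have open pores without diaphragms and no continuous basement membrane, and they remove waste molecules, hyaluronan and immune complexes from the blood through a set of endocytic receptors. In liver cancers and in chronic injury the lining is known to take on features of ordinary capillaries, with CD34 on the cell surface, PLVAP in pore diaphragms and a basement membrane of collagen IV and nidogen, a change called capillarisation. In a bulk sample, fewer cells of a type and less RNA per cell cannot be told apart. Several of the 10 genes are not restricted to endothelium: Stab1 is also made by macrophages, Lyve1 by lymphatic endothelium and some macrophages, Fcgr2b by B cells and macrophages, Pecam1 by platelets and leucocytes, Cd34 by haematopoietic progenitors and fibroblasts, and Vwf by megakaryocytes.

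The deleted cluster encodes a pair of microRNAs with the same seed, the bases 2 to 8 that pair with target RNAs. Their mature sequences are given here from RefSeq on GRCm38.p6, the assembly called mm10, with the seed in capitals, because the seed defines the sites searched for in the 10 genes. miR-181a-5p of Mir181a-1 lies at chr1:137966468-137966490 and miR-181b-5p of Mir181b-1 at chr1:137966650-137966673, both on the plus strand.
mmu-miR-181a-5p: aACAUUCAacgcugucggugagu
mmu-miR-181b-5p: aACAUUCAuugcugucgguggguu

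The complement of the seed, TGAATGT, was searched for on the transcript strand in the 3′ UTR of each of the 10 genes. Of the 10 genes, Cd34 held the motif. It lay at chr1:194960661-194960667 on the plus strand, at position 540 of the 1158 bases of the annotated 3′ UTR, and it is shown with its flanks and with the motif in capitals.
Cd34 3′ UTR site: tcacctgttccTGAATGTctgtctacagag
Among 11505 genes whose mean reached 0.5 TPM and that have an annotated 3′ UTR, 1893 (16.5%) held the motif, and 1 of 10 is not far from that share. The match describes letters in one UTR and is not evidence of binding. The microRNAs themselves could not be read in these libraries of long RNA: Mir181a-1 and Mir181b-1 were at 0 TPM in all samples except for 1 read of Mir181a-1 (1.40 TPM) in GKO tumour 3, a sample in which that gene is deleted according to its label. The genotype labels were therefore not checked by these values.

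All 10 genes were detected in every group. The libraries were those of liver, with summed levels of 10 hepatocyte genes between 126124 and 247559 TPM. These sums do not check which samples were normal liver, non-tumour or tumour. The 6 sinusoidal genes had at least 37 reads in every sample. Cd34 and Vwf were the low members, with a median of 28 and 75 reads per sample, and Cd34 had 0 reads in WT normal liver 1 and 3 reads in GKO non-tumour 3. Plvap had the highest mean level of the 10 genes (70.5 TPM over the 18 samples), and Clec4g the highest among the sinusoidal genes (20.5 TPM).

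Some of the libraries stood apart from their groups in these genes. WT non-tumour 2 had low Stab1, Clec4g, Fcgr2b and Oit3 together with the highest Cd34 and Pecam1 of the non-tumour livers, and GKO tumour 1 had the lowest Clec4g and Fcgr2b of all 18 samples. Neither label says how the piece of tissue was taken. Values without them are given beside many of the comparisons that they enter, for members and for some of the lists. WT tumours 1 and 2 were the most alike pair of tumours across all genes, and differed by more than the sampling noise of reads, so they were not treated as repeats of one library. Whether they came from one mouse is not in the labels and cannot be told from these values. They were counted as separate samples, and the comparison of WT tumours with non-tumours is also given with their mean as 1 sample, which took the genes called from 592 to 185.

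**Figure D1:**
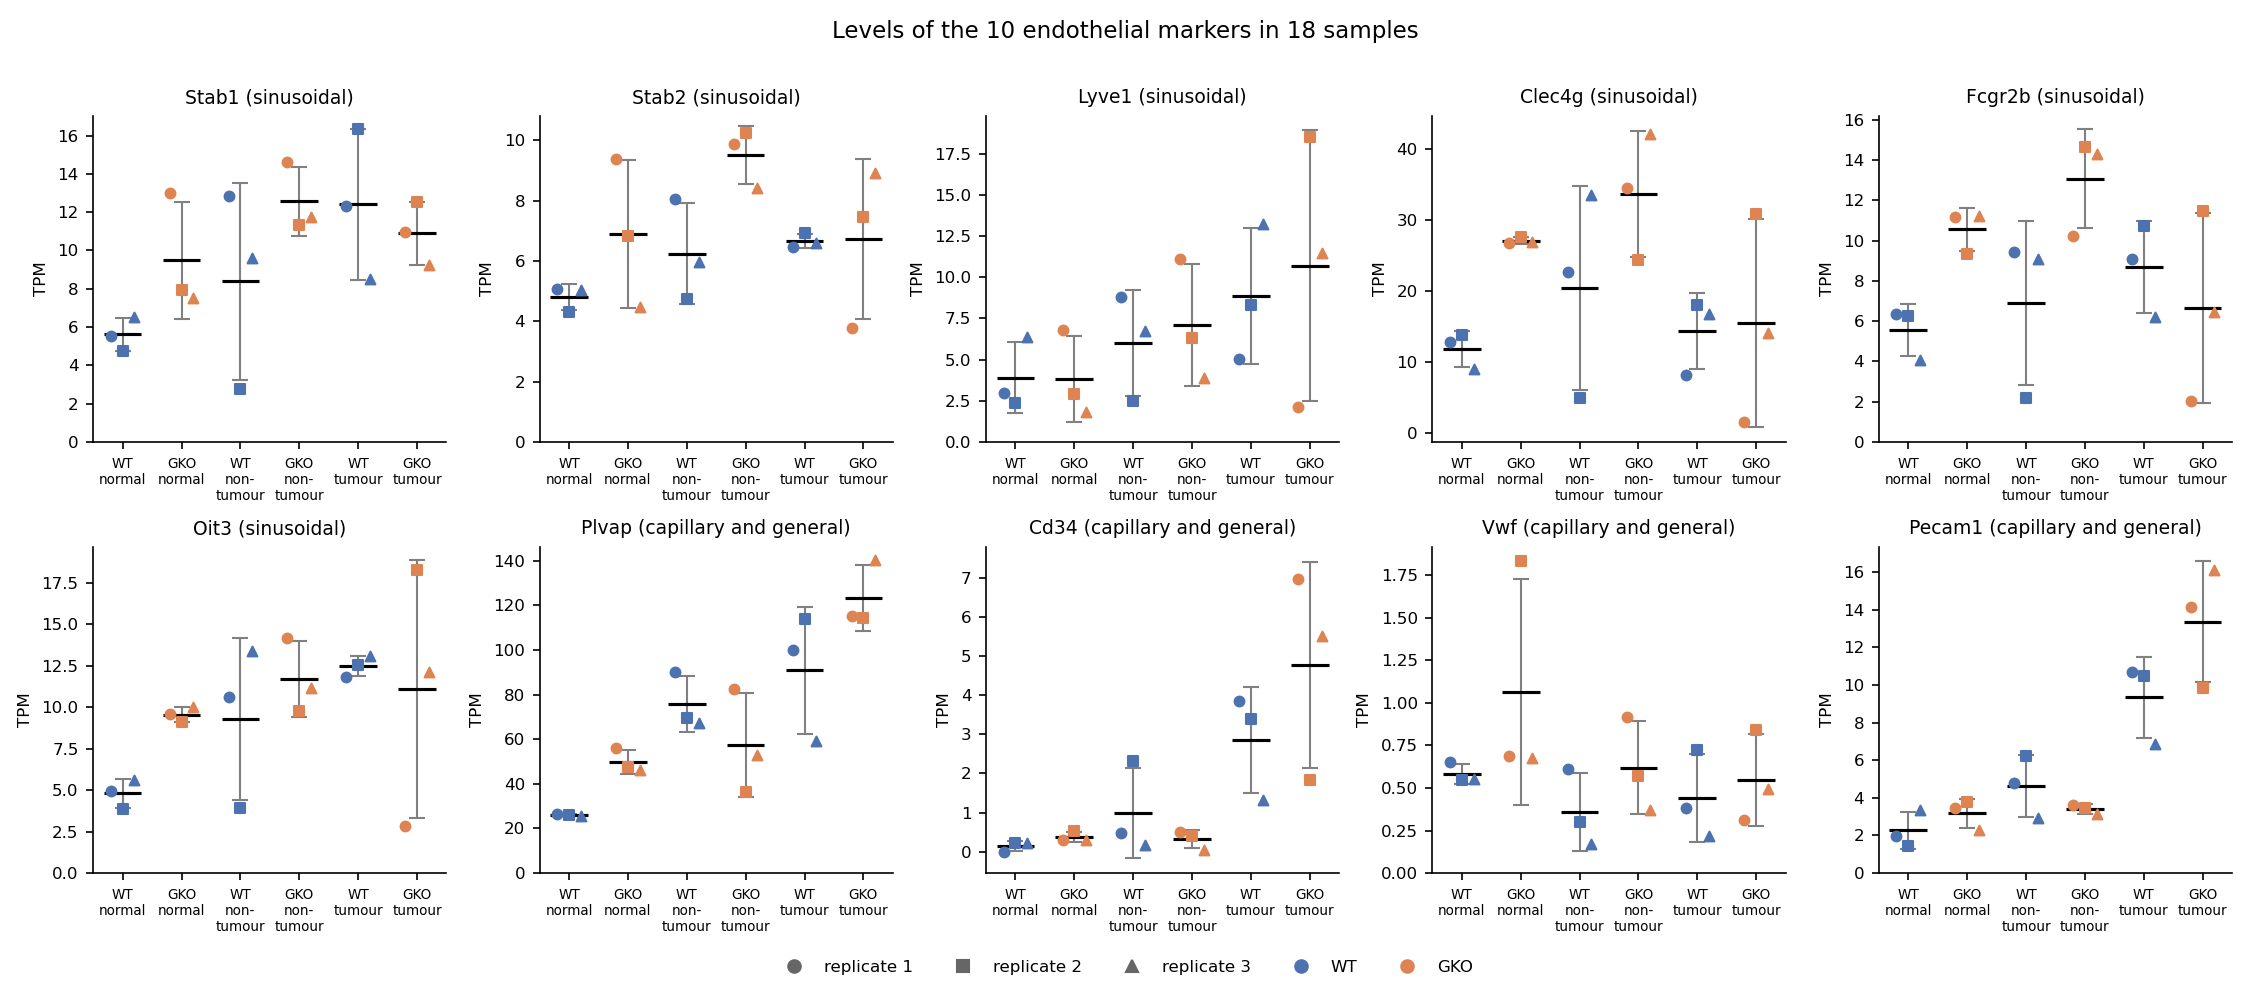
TPM (vertical axis, linear) of each of the 10 genes, one panel per gene, with one point per sample in the 6 groups of 3, a horizontal bar at the group mean and whiskers of 1 SD. Pecam1 and Cd34 were highest in the tumours of both genotypes, Clec4g spread from 1.63 to 30.7 TPM within the GKO tumours, and Plvap was lowest in WT normal livers.

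Stab1 and Stab2 encode stabilins, large scavenger receptors of the sinusoidal lining that take up modified proteins and, for Stab2, hyaluronan. Stab1 lies on chromosome 14 (chr14:31139013-31168641, minus strand) and was at 5.55, 4.77 and 6.53 TPM in WT normal livers 1 to 3 and at 13.0, 7.95 and 7.50 TPM in GKO normal livers. In non-tumours it was at 12.8, 2.75 and 9.58 TPM in WT and at 14.6, 11.4 and 11.7 TPM in GKO. In tumours it was at 12.3, 16.4 and 8.51 TPM in WT and at 10.9, 12.5 and 9.22 TPM in GKO. All 3 GKO normal livers were above the WT normal livers, WT non-tumour 2 was the lowest sample of the 18, and the groups of tumours and non-tumours overlapped.

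Stab2 (chr10:86841198-87008025, minus strand) had the narrowest range of the sinusoidal genes, from 3.78 to 10.2 TPM. It was at 5.06, 4.29 and 5.03 TPM in WT normal livers and at 9.36, 6.81 and 4.47 TPM in GKO normal livers. It was at 8.05, 4.73 and 5.96 TPM in WT non-tumours and at 9.87, 10.2 and 8.43 TPM in GKO non-tumours. It was at 6.45, 6.91 and 6.59 TPM in WT tumours and at 3.78, 7.46 and 8.92 TPM in GKO tumours. The GKO non-tumours were all above the WT non-tumours, and no groups next to each other in the order of the 6 means were separated.

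Lyve1 (chr7:110850607-110863239, minus strand), a hyaluronan receptor, varied widely among replicates. In WT its mean was 3.90 ± 2.16 TPM in normal livers, 6.02 ± 3.20 TPM in non-tumours and 8.86 ± 4.12 TPM in tumours (SD, n = 3 each). In GKO it was 3.84 ± 2.61, 7.09 ± 3.69 and 10.7 ± 8.21 TPM, and the GKO tumours ran from 2.15 to 18.5 TPM. No group of Lyve1 values was separated from its neighbour in the order of means.

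Clec4g encodes LSECtin, a C-type lectin of the sinusoidal lining. It lies at chr8:3707064-3720651 on the minus strand and was at 12.9, 13.8 and 8.99 TPM in WT normal livers, against 26.7, 27.6 and 26.9 TPM in GKO normal livers. It was at 22.7, 5.02 and 33.5 TPM in WT non-tumours and at 34.5, 24.3 and 42.1 TPM in GKO non-tumours. It was at 8.21, 18.1 and 16.8 TPM in WT tumours and at 1.63, 30.7 and 14.1 TPM in GKO tumours. The normal livers of the genotypes were far apart with little spread, whereas WT non-tumour 2 and GKO tumour 1 each held a value several times below the others of their group.

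Fcgr2b, the inhibitory receptor for immunoglobulin G through which the sinusoidal lining clears immune complexes, lies at chr1:170958617-170976547 on the minus strand. It was at 6.36, 6.28 and 4.05 TPM in WT and at 11.2, 9.34 and 11.2 TPM in GKO normal livers, at 9.44, 2.20 and 9.08 TPM in WT and at 10.2, 14.7 and 14.3 TPM in GKO non-tumours, and at 9.09, 10.7 and 6.22 TPM in WT and at 2.04, 11.5 and 6.46 TPM in GKO tumours. It was low in WT non-tumour 2 and in GKO tumour 1, the samples that were low for Clec4g. Its coding sequence resembles that of Fcgr3, and reads could be split between them by counting.

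Oit3, a marker of liver sinusoidal cells with a zona pellucida domain (chr10:59422958-59441778, minus strand), was at 4.97, 3.87 and 5.60 TPM in WT and at 9.57, 9.12 and 9.99 TPM in GKO normal livers. It was at 10.6, 3.91 and 13.4 TPM in WT and at 14.2, 9.75 and 11.2 TPM in GKO non-tumours. It was at 11.8, 12.5 and 13.1 TPM in WT and at 2.83, 18.3 and 12.1 TPM in GKO tumours. All 3 GKO normal livers were above all 3 WT normal livers, and GKO tumour 1 was the lowest of the 18 samples.

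Plvap encodes the protein of the diaphragms that close endothelial pores and caveolae. It lies at chr8:71497765-71511752 on the minus strand and was at 26.5, 26.0 and 25.7 TPM in WT normal livers and at 56.1, 47.5 and 46.2 TPM in GKO normal livers. It was at 90.04, 69.7 and 67.0 TPM in WT non-tumours and at 82.7, 36.4 and 53.0 TPM in GKO non-tumours. It was at 99.9, 114 and 59.0 TPM in WT tumours and at 115, 115 and 140.5 TPM in GKO tumours. In the order of group means the GKO tumours (123 TPM) were separated from the WT tumours (90.9 TPM), and the GKO normal livers (49.9 TPM) from the WT normal livers (26.1 TPM).

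Pecam1 encodes CD31, an adhesion molecule at the junctions of endothelial cells (chr11:106654217-106750628, minus strand). It was at 1.99, 1.46 and 3.37 TPM in WT and at 3.48, 3.77 and 2.30 TPM in GKO normal livers. It was at 4.79, 6.21 and 2.92 TPM in WT and at 3.63, 3.46 and 3.13 TPM in GKO non-tumours. It was at 10.7, 10.5 and 6.84 TPM in WT and at 14.1, 9.82 and 16.1 TPM in GKO tumours. Every tumour was above every non-tumour and every normal liver, and the WT tumours (mean 9.33 TPM) were separated from the next group in the order, the WT non-tumours (4.64 TPM).

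Cd34 encodes a sialomucin of capillary endothelium (chr1:194938819-194961279, plus strand). It was at 0, 0.232 and 0.210 TPM in WT and at 0.302, 0.528 and 0.290 TPM in GKO normal livers. It was at 0.467, 2.32 and 0.180 TPM in WT and at 0.491, 0.403 and 0.0510 TPM in GKO non-tumours. It was at 3.85, 3.41 and 1.32 TPM in WT and at 6.98, 1.84 and 5.51 TPM in GKO tumours. The tumours were above every other sample but WT non-tumour 2, whose value of 2.32 TPM lay inside the range of the tumours of each genotype.

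Vwf, the clotting protein stored in endothelial granules, mainly of larger vessels (chr6:125546774-125686679, plus strand), was low everywhere, from 0.171 TPM in WT non-tumour 3 to 1.83 TPM in GKO normal liver 2. Its group means lay between 0.361 ± 0.228 TPM in WT non-tumours and 1.06 ± 0.665 TPM in GKO normal livers (SD, n = 3 each). No neighbours in the order of the 6 means were separated, and the tumours of both genotypes lay within the range of the other livers.

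Tumours were compared with non-tumours within each genotype to ask how the endothelial genes differ between cancer and the surrounding liver. In GKO mice, Pecam1 rose in tumours over non-tumours, and Cd34 passed the test in the same direction. The mean of Pecam1 went from 3.41 ± 0.256 to 13.4 ± 3.22 TPM (SD, n = 3 each), a ratio of 3.92, and that of Cd34 from 0.315 ± 0.233 to 4.78 ± 2.64 TPM, a ratio of 15.2. Plvap was above the non-tumours in all 3 tumours but did not pass the test, and none of the 6 sinusoidal genes passed it.

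Differences were tested with limma on log2(TPM + 1), with p-values adjusted over all genes tested and called under 0.05. On this scale a log2 fold change understates the change of genes at low TPM. The log2 fold change was 1.68 for Pecam1 (SE 0.23, 95% confidence interval 1.14 to 2.22, adjusted p = 0.00882) and 2.02 for Cd34 (SE 0.39, interval 1.11 to 2.94, adjusted p = 0.0216). Cd34 entered the test only through the tumours, since its mean in non-tumours was under the 0.5 TPM that a gene had to reach on average over the samples compared, and with all genes tested it was not called (limma adjusted p = 0.0687), whereas Pecam1 was (0.0295). These were 2 of the 10 genes called, both upward, where 11.7% of 14092 genes were called (7.75% up and 3.97% down) and the median log2 fold change of all genes was 0.199. Without the filter 1 of the 10 was called, where 2.26% of 26005 genes were called (1.47% up and 0.8% down). Of the 1092 genes called up, 208 had, like Cd34, a mean under 0.5 TPM in one group. The log2 fold change of Plvap was 1.16 (SE 0.32, limma adjusted p = 0.0575). Plvap, Pecam1 and Cd34 had unadjusted p under 0.05 and groups that did not overlap, which 21.6% and 25.7% of genes had in the upward direction. Among the sinusoidal genes it ran from -1.65 for Clec4g (SE 0.82, adjusted p = 0.208) through -1.08 for Fcgr2b and -0.51 for Stab2 to 0.28 for Lyve1, and Vwf was at -0.07.

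The calls rested on few samples. The adjusted p from limma was 0.0522 for Pecam1 without GKO non-tumour 3, and for Cd34 it was 0.0619, 0.0920 and 0.0749 without GKO non-tumour 2, GKO non-tumour 3 and GKO tumour 3. Plvap was called without GKO non-tumour 1 (adjusted p = 0.0319). Without GKO tumour 1 the log2 fold change of Clec4g was -0.63, that of Fcgr2b -0.53 and that of Stab2 -0.20, that of Lyve1 was 1.05, and that of Oit3 turned from -0.34 to 0.34. Pecam1 and Cd34 were called without it (adjusted p = 0.0219 and 0.0467).

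In WT mice the same contrast gave 0 of the 9 tested members called, where limma called 4.23% of 14003 genes (2.16% up and 2.07% down). Pecam1 was the one member with an unadjusted limma p under 0.05 (0.0194), which 9.31% of genes had in the upward direction. It was above the non-tumours in all 3 tumours, as were 11% of genes, with a ratio of means of 2.01 and a log2 fold change of 0.89 (SE 0.30, adjusted p = 0.163), and it was called when all 18 samples shared one estimate of the spread (adjusted p = 0.0443). With WT tumours 1 and 2 averaged as 1 sample, neither Pecam1 nor any other member tested had an unadjusted limma p under 0.05. For Cd34 the log2 fold change was 1.04 (adjusted p = 0.275) and the ratio of means 2.89, with WT non-tumour 2 inside the range of the tumours. Plvap was at 0.22, Stab1 at 0.67, Lyve1 and Oit3 at 0.53, Fcgr2b at 0.45, Stab2 at 0.10 and Clec4g at -0.22. The sinusoidal genes thus had values on both sides of zero in WT, as they did in GKO. The median log2 fold change of the 6 sinusoidal genes was 0.49 in WT, where that of all genes was -0.024, and it was 0.0038 without WT non-tumour 2. In GKO it was -0.43, against 0.199 for all genes, and it was -0.20 without GKO tumour 1. Without WT non-tumour 2 the WT estimates were 1.09 for Pecam1 (limma adjusted p = 0.0974), 1.48 for Cd34 (adjusted p = 0.0868) and -0.97 for Clec4g.

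The difference between the genotypes in this contrast was tested as an interaction, in which limma called 0.0142% of 14106 genes and 0 of the 9 members tested. No member had an unadjusted p under 0.05. The interaction was 0.78 for Pecam1 (unadjusted p = 0.0609, adjusted p = 0.477), 0.99 for Cd34, 0.94 for Plvap and -1.53 for Fcgr2b (unadjusted p = 0.0649). Without GKO tumour 1 it was 0.73 for Pecam1, 0.69 for Cd34 and -0.98 for Fcgr2b, and without WT non-tumour 2 it was 0.58, 0.54 and -0.97. The call for Pecam1 and Cd34 in GKO and not in WT is therefore not shown to be a difference between the genotypes.

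**Figure D2:**
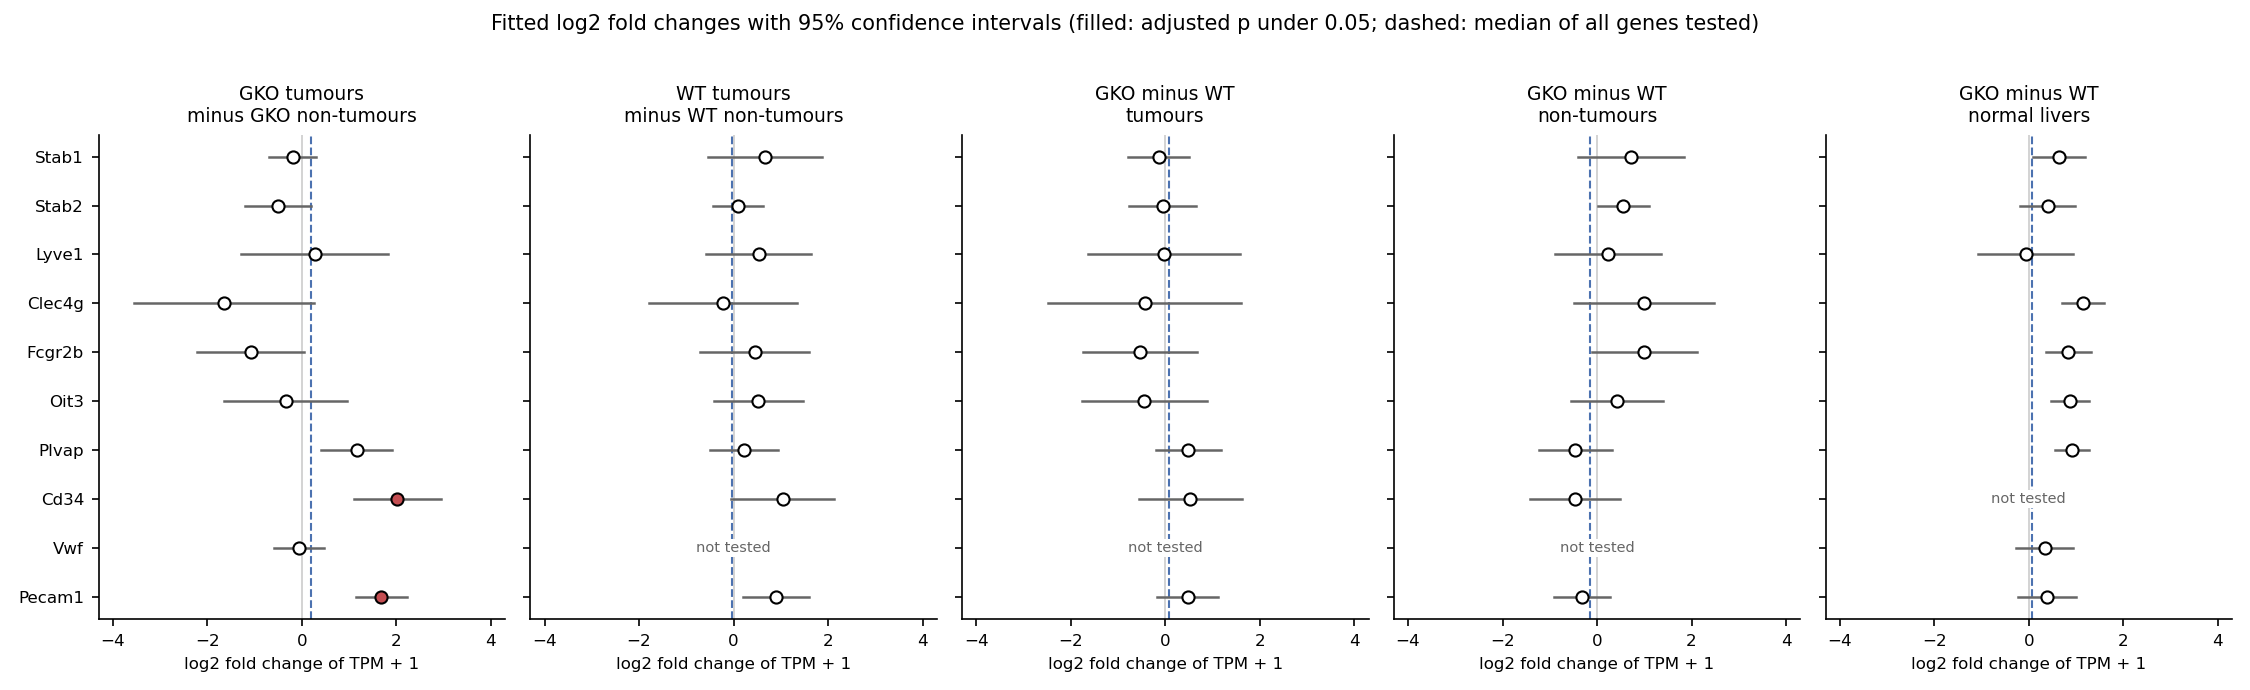
log2 fold change on the log2(TPM + 1) scale (horizontal axis) of the 10 genes in the tumour against non-tumour and the GKO against WT comparisons, with points for limma estimates, bars for their 95% confidence intervals and a dashed line at the median of all genes. The filled points mark calls, Pecam1 at 1.68 and Cd34 at 2.02 in GKO tumours against GKO non-tumours, and the sinusoidal genes have wide intervals in the same panel.

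Lists of further endothelial genes were read in the same fits. In GKO tumours against non-tumours, 10 of 23 pan-endothelial genes were called up and 0 down, with a median log2 fold change of 0.76. Of all genes 7.75% were called up and 3.97% down, with a median of 0.199. Cd93, a transmembrane receptor of endothelial cells, was at 1.09, 1.19 and 1.17 TPM in GKO non-tumours and at 11.1, 4.01 and 8.10 TPM in GKO tumours, with a change of 1.93 on the log2 scale (SE 0.32, limma adjusted p = 0.0147). Sox18, a transcription factor of endothelium, was at 6.31, 6.78 and 10.8 TPM and at 26.8, 23.8 and 32.0 TPM. The groups of both genes were apart by more than their spread. Without the filter on low values 4 of the 23 pan-endothelial genes were called, where 1.47% of all genes were called up.

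The capillary and tumour vessel list gave the highest changes. In GKO, 8 of its 16 tested genes were called up and 0 down, with a median of 1.83. Esm1, a proteoglycan of sprouting endothelial cells, was at 2.07, 0.669 and 0.355 TPM in GKO non-tumours and at 52.0, 20.8 and 43.5 TPM in GKO tumours (log2 fold change 4.28, SE 0.42, limma adjusted p = 0.00479). Nid1, the nidogen that links laminin to collagen IV in basement membranes, was at 1.97, 0.937 and 1.11 TPM and at 26.7, 27.5 and 35.7 TPM (3.74, SE 0.24, adjusted p = 0.00218). The non-tumour and tumour values of these genes did not come near each other. Of the 8 called genes 2 had a non-tumour mean under 0.5 TPM and entered through the tumours, and 6 were called without the filter, Esm1 and Nid1 among them.

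In WT, Nid1 and Esm1 were the called genes of the 17 tested in that list. Nid1 was at 1.67, 7.74 and 1.70 TPM in WT non-tumours and at 36.4, 33.0 and 42.1 TPM in WT tumours (3.26, SE 0.47, limma adjusted p = 0.0155). Esm1 was at 1.68, 9.29 and 1.08 TPM and at 40.1, 35.3 and 21.7 TPM (3.07, SE 0.60, adjusted p = 0.0412). WT non-tumour 2 was the highest non-tumour for both, as it was for Cd34. The median of the list was 0.76. Of 23 pan-endothelial genes, with a median of 0.49, 2 were called up, the adhesion molecule Icam2 (1.49, adjusted p = 0.0499) and the tight junction protein Cldn5 (1.35, adjusted p = 0.0499). Without the filter, Nid1 was the gene of these lists that was called in WT, where 1.18% of 25219 genes were called (0.627% up and 0.551% down). With WT tumours 1 and 2 averaged as 1 sample, limma called 0 genes of all the lists in WT, with 185 of 13947 genes called, and at an unadjusted p under 0.05 it gave 5 pan-endothelial genes higher and 1 lower and 8 capillary genes higher and 1 lower.

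These counts moved with single libraries. In WT, leaving out WT non-tumour 2 gave 3 pan-endothelial genes called up, and in the capillary list 6 up and 1 down of 16, leaving out WT tumour 3 gave 5 and 3 up, and leaving out any other WT sample of the contrast gave 0 and 0. In GKO, the pan-endothelial count was 10 without GKO tumour 2, 8 without GKO non-tumour 1, 4 without GKO tumour 1, 4 without GKO non-tumour 2, 3 without GKO tumour 3 and 1 without GKO non-tumour 3. The capillary count stayed between 5 and 9 in these fits. The number of all genes called moved in the same fits. In WT it was 843 without WT non-tumour 2, 1363 without WT tumour 3 and 163 to 214 without any other sample, and in GKO it ran from 229 without GKO non-tumour 3 to 1567 without GKO non-tumour 1.

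The other sinusoidal genes did not move as one group in GKO. Of 21 tested, 1 was called up and 2 down, where 7.75% of all genes were called up and 3.97% down. Counts of calls this small are not far from those shares. At an unadjusted limma p under 0.05, 3 of the 21 were higher and 7 lower, where 3046 and 1422 of 14092 genes were. A log2 fold change above 0 was found for 6 of the 21 and for 62.7% of all genes. The median of the list was -0.64, against 0.199 for all genes. Adgrl4, an adhesion receptor of endothelium in general, was the gene that rose (1.02, SE 0.21, limma adjusted p = 0.0279). Those that fell were Rspo3 and Wnt2, signals with which the endothelium around the central vein maintains Wnt activity in neighbouring hepatocytes. Rspo3 was at 5.21, 7.06 and 3.61 TPM in GKO non-tumours and at 0.280, 1.46 and 0.394 TPM in GKO tumours (log2 fold change -1.90, SE 0.32, adjusted p = 0.0151). Wnt2 was at 2.04, 2.49 and 2.04 TPM and at 0.0480, 1.03 and 0.486 TPM (-1.12, SE 0.27, adjusted p = 0.0398). Without the filter none of the 3 was called, with adjusted p of 0.0704 for Adgrl4, 0.0534 for Rspo3 and 0.0993 for Wnt2. Rspo3 and Wnt2 belong to the list of 5 tested pericentral genes as well, in which they were the genes called. Without GKO tumour 1 the sinusoidal list had 0 genes called up and 1 down, with a median of -0.18. In WT, limma called 0 of 20 other sinusoidal genes, with a median of 0.19 that was -0.30 without WT non-tumour 2, and Rspo3 had a log2 fold change of -1.14 (adjusted p = 0.244).

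Among 8 periportal and arterial endothelial genes in GKO tumours, 2 rose and none fell, where 7.75% of all genes were called up. Dll4, a Notch ligand, was at 2.49, 1.69 and 1.74 TPM in non-tumours and at 10.5, 5.87 and 8.19 TPM in tumours (1.61, SE 0.25, limma adjusted p = 0.0120). Efnb2, an ephrin of arterial endothelium, was at 0.354, 0.410 and 0.398 TPM and at 2.04, 2.32 and 3.999 TPM (1.41, SE 0.24, adjusted p = 0.0144). Each tumour was above each non-tumour. Efnb2 was under 0.5 TPM in all 3 non-tumours and entered the test through the tumours, and both genes were called without the filter. Of 14 vascular growth signals and inhibitors 4 rose and none fell, with a median of 0.18, and 8 of the 14 had a value above 0, as did 62.7% of all genes, whose median was 0.199. At an unadjusted p under 0.05, 5 were higher and 3 lower, with Gdf2 (-1.35) and Bmp10 (-0.67) among the lower ones, named after their values were seen. Those that rose were led by Angpt2, a ligand of the Tie2 receptor (2.00, adjusted p = 0.0196), and Timp3, an inhibitor of metalloproteinases (1.56, adjusted p = 0.0166). Of the 4 called genes 3, Angpt2 and Timp3 among them, entered through the tumours, and without the filter 1 gene was called, with adjusted p of 0.0625 for Angpt2 and 0.0550 for Timp3. Of the 6 genes of the lymphatic list, which holds markers shared with Lyve1-positive vessels, 3 were tested in each genotype and none was called.

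**Figure D3:**
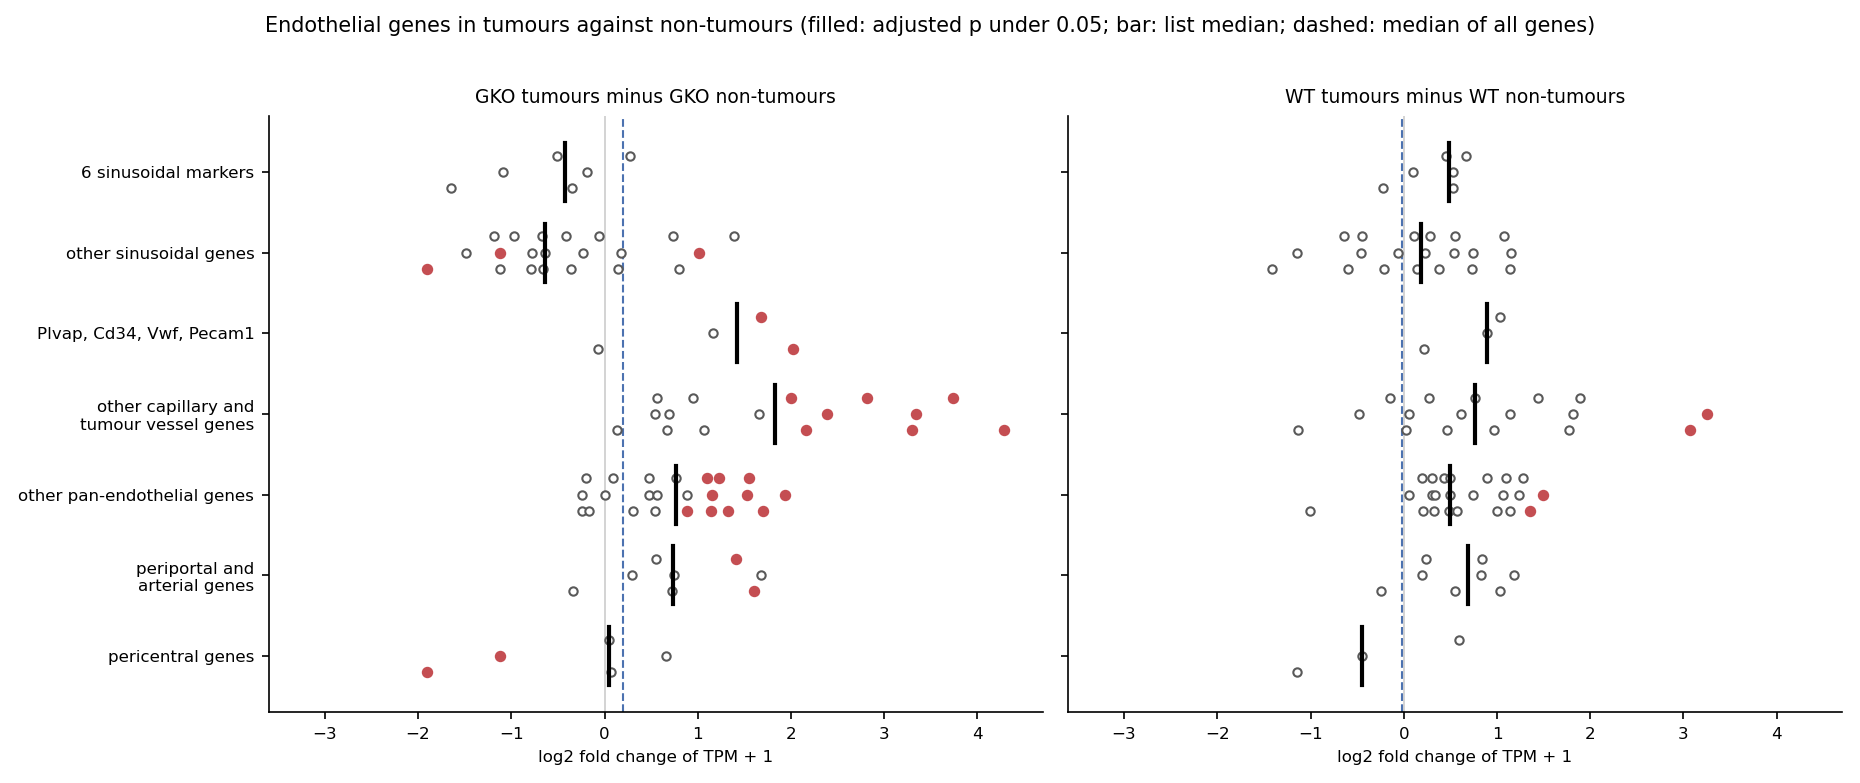
log2 fold change of tumours against non-tumours (horizontal axis, log2(TPM + 1) scale) for each tested gene of the members and the endothelial lists, with GKO and WT in separate panels, filled points for genes called by limma, a bar at each list's median and a dashed line at the median of all genes. In GKO the capillary and tumour vessel list is centred at 1.83 and the other sinusoidal list at -0.64.

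Markers of other cells moved in the same contrast. In GKO, 5 of 13 stellate cell, fibroblast and pericyte genes rose, with Col1a1 at 4.33 and Acta2 at 3.49, and Dcn fell by 1.96 on the log2 scale. Their summed level was 77.1 ± 16.5 TPM in GKO non-tumours and 151 ± 51.9 TPM in GKO tumours (SD, n = 3 each). Marco (-3.25) and Timd4 (-2.06) fell among 12 Kupffer cell and macrophage genes, whose sum was 1308, 269 and 510.1 TPM in non-tumours and 297, 555 and 216 TPM in tumours, with C1qa the most abundant. The sums overlapped, and GKO non-tumour 1 alone was above all the tumours. Cd79b (-1.01) fell among the B cell genes, whose sum was 16.7 ± 4.69 and 6.31 ± 2.91 TPM. The platelet and megakaryocyte genes summed to 12.4 ± 1.63 and 9.67 ± 2.30 TPM, with Pf4 most abundant and Gp1bb at 0 in every sample. Itga2b, a platelet integrin, fell in this list (-0.75, limma adjusted p = 0.0478). The cholangiocyte genes summed to 51.5 ± 13.0 TPM in GKO non-tumours and to 528 ± 461 TPM in GKO tumours, most of it Spp1, with 48.7, 969 and 565 TPM in GKO tumours 1 to 3. All 5 tested were higher, 3 of them at an unadjusted p under 0.05, and none was called. The part of the other cells in the changes of Pecam1, Cd34 and Fcgr2b was not tested. Hepatocyte genes summed to 162461 ± 25405 and 238572 ± 14065 TPM, where Alb (2.00) and Apoa1 (1.38) rose and Apoa2 fell by 1.25 on the log2 scale. Without the filter the 5 stellate cell genes called up became 4, Col1a1 and Acta2 among them, and none of the named Kupffer cell, B cell, platelet and hepatocyte genes was called, nor was Dcn.

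In WT the corresponding sums were 65.2 ± 14.8 TPM in non-tumours and 80.8 ± 22.4 TPM in tumours for stellate cell genes, 555 ± 275 and 252 ± 101 TPM for Kupffer cell genes and 6.44 ± 3.12 and 12.6 ± 6.08 TPM for platelet genes. Of 13 stellate cell, fibroblast and pericyte genes 6 were higher and 7 lower, with a median of -0.50, and at an unadjusted p under 0.05 limma gave 4 higher and 6 lower. Among the 4 was Col1a1, a fibrillar collagen chain named after its values were seen, at 4.86, 8.45 and 1.29 TPM in non-tumours and at 14.5, 21.2 and 14.3 TPM in tumours (log2 fold change 1.79, limma adjusted p = 0.115). Its groups did not overlap, and neither did those of Col1a2 and Col3a1, which were higher as well. The pericyte gene Rgs5 fell (-1.47, limma adjusted p = 0.0136) and Alb rose (1.40, adjusted p = 0.0358), of which Rgs5 was called without the filter (adjusted p = 0.0421) and Alb was not (0.665). The part of these cells in the values of the 10 genes was not tested.

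The sinusoidal genes were also set against endothelial RNA as a whole. The 6 sinusoidal genes summed to 72.4, 21.1 and 78.3 TPM in WT non-tumours and to 53.0, 72.9 and 64.4 TPM in WT tumours. In GKO they summed to 94.5, 76.6 and 91.6 TPM in non-tumours and to 23.4, 99.0 and 62.3 TPM in tumours. The groups overlapped in both genotypes. The 23 pan-endothelial genes, in contrast, summed to 185, 184 and 148 TPM in WT non-tumours, 308, 309 and 199.8 TPM in WT tumours, 177, 173 and 153 TPM in GKO non-tumours and 269, 256 and 309 TPM in GKO tumours, and every tumour was above every non-tumour.

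In GKO, sinusoidal RNA per endothelial RNA was lower in every tumour than in every non-tumour. The ratio of the sinusoidal to the pan-endothelial sum was 0.535, 0.442 and 0.597 in GKO non-tumours and 0.0870, 0.386 and 0.202 in GKO tumours. It was 0.392, 0.115 and 0.530 in WT non-tumours and 0.172, 0.236 and 0.322 in WT tumours, where WT non-tumour 2 was the lowest of the 6. The ratio of Stab2 to Pecam1 was 2.72, 2.96 and 2.695 in GKO non-tumours and 0.267, 0.760 and 0.554 in GKO tumours, and it was 1.68, 0.761 and 2.04 in WT non-tumours and 0.603, 0.661 and 0.963 in WT tumours. The fall in these ratios includes the rise of Pecam1 and of the pan-endothelial genes, so it is a description of the balance and was given no test.

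**Figure D4:**
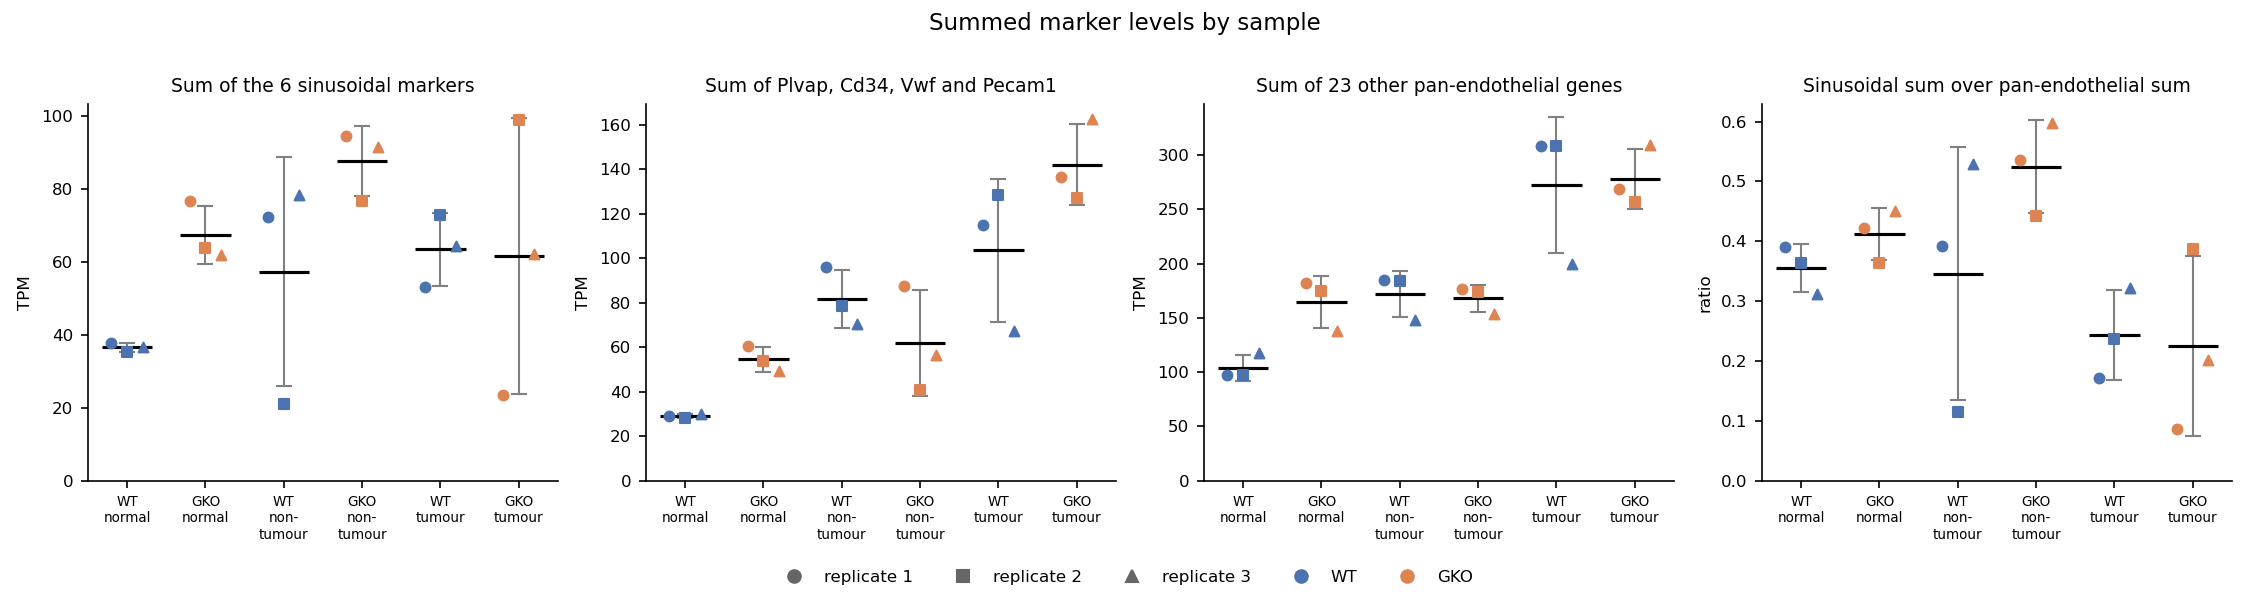
Summed TPM of the 6 sinusoidal genes, of Plvap, Cd34, Vwf and Pecam1, and of the 23 other pan-endothelial genes, and the ratio of the sinusoidal to the pan-endothelial sum (vertical axes), with one point per sample in the 6 groups of 3, a bar at the group mean and whiskers of 1 SD. Every tumour lies above every non-tumour for the pan-endothelial sum, and the ratio falls from 0.442 or more in GKO non-tumours to 0.386 or less in GKO tumours.

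GKO and WT tumours were compared to ask how the deletion bears on the vessels of the tumours. No member was called, where limma called 0.0215% of 13964 genes, and none of the 9 tested members had an unadjusted p under 0.05, which 5.37% of genes had upward. Plvap was higher in all 3 GKO tumours than in the WT tumours, at a mean of 123 ± 14.8 against 90.9 ± 28.5 TPM (SD, n = 3 each), and its log2 difference was 0.48 (limma adjusted p = 0.668). Separation upward of this kind was found for 9.88% of all genes. Cd34 was at 0.53 and Pecam1 at 0.47 with overlapping groups. The 6 sinusoidal genes ran from -0.53 to -0.02, and the interval of Clec4g, -2.48 to 1.60, shows how little the spread of the GKO tumours allowed to be resolved.

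Without GKO tumour 1 the estimates were 0.58 for Clec4g, 0.75 for Lyve1, 0.26 for Stab2, 0.24 for Oit3 and 0.023 for Fcgr2b, in place of negative values. In the capillary and tumour vessel list 15 of 16 genes were higher in GKO tumours, 3 of them at an unadjusted p under 0.05 and none called, and in the stellate list 10 of 13 were higher, 6 of them at an unadjusted p under 0.05 and none called, while 60.0% of all genes tested were higher. Without GKO tumour 1 the counts were 11 of 16 higher and 1 at an unadjusted p under 0.05 in the capillary list, and 11 of 12 and 4 in the stellate list. The stellate sum was 151 ± 51.9 TPM in GKO tumours and 80.8 ± 22.4 TPM in WT tumours, and its part in the levels of Plvap, Cd34 and Pecam1 was not tested. Of 5 cholangiocyte genes tested 4 were higher, 3 of them at an unadjusted p under 0.05 and none called, with a median of 1.18. Their sums were 48.7, 969 and 565 TPM in GKO tumours 1 to 3 and 52.0, 59.2 and 32.6 TPM in WT tumours 1 to 3. Of 4 B cell genes tested 0 were higher, with a median of -0.56. The part of these cells in the levels of the members was not tested.

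In the non-tumours of DEN-treated mice, limma called 0% of 13768 genes between GKO and WT, and none of the members. At an unadjusted p under 0.05 there were 270 genes higher (1.96%) and 529 lower, and the median log2 fold change of all genes was -0.147. Stab2 was the member with an unadjusted limma p under 0.05 (0.0415), at a log2 fold change of 0.56 (adjusted p = 0.643), with all 3 GKO non-tumours above the WT ones. Fcgr2b was at 1.00 and also separated, and such upward separation was found for 3.88% of all genes. Clec4g was at 0.99, Stab1 at 0.72, Oit3 at 0.43 and Lyve1 at 0.23, whereas Plvap and Cd34 were at -0.46 and Pecam1 at -0.31. WT non-tumour 2 was the lowest of its group for each of the 6 sinusoidal genes. Without it the estimates were 0.40 for Stab2, 0.44 for Fcgr2b, 0.24 for Clec4g and 0.16 for Stab1, and those for Oit3 and Lyve1 turned to -0.039 and -0.21. Plvap was then at -0.51 and Pecam1 at -0.11, and Cd34 was too low to be tested. With all samples, 18 of 21 other sinusoidal genes and 3 of 14 capillary genes were higher in GKO, where 33.5% of all genes were. So were 4 of 4 platelet genes (median 0.77), 4 of 4 B cell genes (median 0.35), 8 of 12 Kupffer cell genes and 7 of 13 stellate genes. The capillary list summed to 90.1 TPM in WT non-tumour 2, against 40.2 and 34.3 TPM in WT non-tumours 1 and 3. Its sum in GKO non-tumours was 34.5 ± 4.15 TPM (SD, n = 3), so without WT non-tumour 2 the genotypes overlapped. List counts without that sample are not given for this comparison. The split of the lists is therefore not shown to be a difference between the genotypes. WT non-tumour 2 also had the lowest platelet and B cell sums of its group, 2.84 and 3.48 TPM. The part of these cells in the levels of the members was not tested.

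Normal livers of untreated mice were compared to ask what the deletion does without DEN. Clec4g, Plvap, Oit3, Fcgr2b and Stab1 were each higher in all 3 GKO livers than in all 3 WT livers, and none was called by limma, which called 0% of 13099 genes here. At an unadjusted p under 0.05 were 415 genes higher and 104 lower (3.17% and 0.794%), and these 5 members were among the higher ones. The ratio of means was 2.28 for Clec4g (log2 fold change 1.14, SE 0.19, unadjusted p = 0.000414, adjusted p = 0.668) and 1.92 for Plvap (0.91, SE 0.15, unadjusted p = 0.000462, adjusted p = 0.668). It was 1.99 for Oit3 (0.87, adjusted p = 0.799) and 1.90 for Fcgr2b (0.84, adjusted p = 0.930), and Stab1 was at 0.63 on the log2 scale.

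Of the 10 genes, 7 were separated upward in GKO normal livers, these 5 with Vwf (0.34) and Cd34, which was too low to be tested, where 6.23% of the tested genes were. Stab2 (0.40), Pecam1 (0.38) and Lyve1 (-0.06) overlapped. The lists had the same direction without calls, where 62.4% of all genes tested were higher in GKO with a median of 0.064. In these lists 17 of 19 other sinusoidal genes were higher in GKO, 9 of them at an unadjusted p under 0.05, as were 22 of 23 pan-endothelial genes (10 at an unadjusted p under 0.05) and 10 of 11 capillary genes (4).

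Other cell markers were read in the same livers. All 13 stellate genes tested were higher, 7 at an unadjusted p under 0.05, with a median of 0.74 and a sum of 52.3 ± 9.77 TPM in WT and 101 ± 21.05 TPM in GKO normal livers (SD, n = 3 each). The cholangiocyte sum, led by Spp1, was 50.7 ± 5.41 and 95.4 ± 5.35 TPM, though 3 of 5 genes tested were higher. The Kupffer cell sum was 227, 153 and 257 TPM in WT and 451, 202 and 195 TPM in GKO, so that GKO livers 2 and 3 lay inside the WT range, while 8 of 11 genes tested were higher, with a median of 0.44. Of 4 platelet genes 3 were higher, with a median of 0.34. Of the B cell genes 2 of 4 were higher, with a median of -0.03, and of the T and NK cell genes 1 of 2. Hepatocyte genes did not share the direction, with 4 of 10 higher, a median of -0.01 and sums of 172011 ± 12968 and 176705 ± 20478 TPM. The part of a different share of non-parenchymal tissue in the levels of Clec4g, Plvap and Oit3 was not tested. The ratio of the sinusoidal to the pan-endothelial sum overlapped between the genotypes, at 0.390, 0.364 and 0.312 in WT and 0.422, 0.364 and 0.451 in GKO normal livers.

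**Figure D5:**
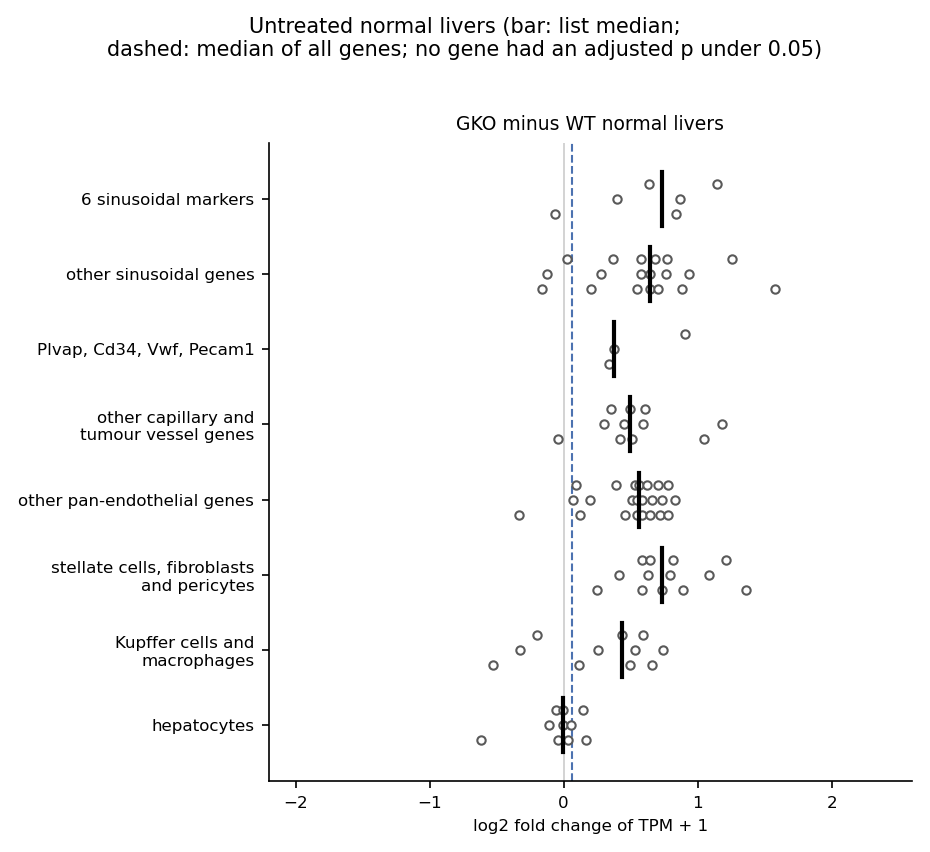
log2 fold change of GKO against WT normal livers (horizontal axis, log2(TPM + 1) scale) for each tested gene of the members, of endothelial lists and of stellate, Kupffer and hepatocyte lists, with a bar at each list's median and a dashed line at the median of all genes. Of 23 pan-endothelial genes 22 lie above 0, all 13 stellate genes do, and the hepatocyte genes are centred at -0.01, and none was called.

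DEN-treated non-tumour livers were compared with normal livers in each genotype. In WT, limma called 0.00744% of 13440 genes and none of the members, while 22.4% of genes were higher at an unadjusted p under 0.05 and the median of all genes was 0.325. Plvap was 2.90 times as high in WT non-tumours as in WT normal livers, with all 3 above, as for 31% of genes (log2 fold change 1.49, SE 0.19, unadjusted p = 8.9e-05, adjusted p = 0.114). Pecam1 was at 0.78 (unadjusted p = 0.0373), and the other members tested were between 0.10 and 0.70. Without WT non-tumour 2, Plvap was at 1.54, Pecam1 at 0.58, Clec4g at 1.17, Oit3 at 1.16, Lyve1 at 0.92, Stab1 at 0.88, Fcgr2b at 0.67 and Stab2 at 0.46, and none was called. With all samples, Plvap and Pecam1 were the members with an unadjusted p under 0.05. Of 11 Kupffer cell and macrophage genes 10 were higher in WT non-tumours, 6 of them at an unadjusted p under 0.05, with a median of 1.13, where 79.7% of all genes were higher, and with sums of 213 ± 53.3 TPM in normal livers and 555 ± 275 TPM in non-tumours (SD, n = 3 each). Their part in the levels of Stab1, Lyve1 and Fcgr2b was not tested.

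In GKO, limma called 0% of 13530 genes and none of the members between non-tumours and normal livers, with 580 genes higher (4.29%) and 123 lower at an unadjusted p under 0.05. All the members' groups overlapped, and 7.12% of genes were separated upward. Plvap was at 0.12 and Lyve1, the highest, at 0.77. All 12 Kupffer cell genes tested were higher in GKO non-tumours, 1 of them at an unadjusted p under 0.05, with a median of 1.05, where 65.0% of all genes were higher with a median of 0.08, and their part in the levels of the members was not tested. The difference of the DEN contrast between the genotypes was -1.37 for Plvap (unadjusted p = 0.00303, adjusted p = 0.724), and limma called 0% of 13488 genes for it. Leaving out single samples gave -1.66 to -1.08 for Plvap. This interaction was added after the values had been seen. The WT and GKO normal livers enter it as well as the genotype comparison above, so the higher Plvap of untreated GKO livers is part of the same number.

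The members were also compared with one another over the 18 samples, as a description, since the samples share groups and the genes share libraries. Within the 6 sinusoidal genes the 15 pairs had Pearson correlations of log2(TPM + 1) from 0.35 to 0.88, with a median of 0.66. Within the other 4 genes the 6 pairs ran from -0.22 to 0.94 with a median of 0.33, and Cd34 with Pecam1 was the highest. The 24 pairs between the groups ran from -0.62 to 0.53, with a median of 0.16.

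The genes most like each member across the whole table, among 11897 with a mean of at least 1 TPM, followed the same split. Closest to Clec4g were Dnase1l3 (r = 0.93), Mrc1 (0.90) and Cd55 (0.89), and closest to Fcgr2b were Dnase1l3 (0.91), Cd55 (0.90) and Clec4g (0.88). Oit3 was closest to Gpr182 (0.90), Ehd3 (0.90) and Tspan7 (0.89), Stab1 to Eva1b (0.90) and Cyp4b1 (0.88), Stab2 to Ncoa3 (0.89), Tmem132e (0.84) and Ptprb (0.83), and Lyve1 to Cemip2 (0.87), Trim30a (0.83) and Vcam1 (0.82). Dnase1l3 and Gpr182 are themselves genes of the other sinusoidal list. GKO tumour 1 was their lowest sample, at 1.49 and 1.48 TPM, as it was for Clec4g and Oit3.

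Closest to Cd34 were Cd93 (r = 0.98), Apln (0.98) and Col4a1 (0.97), and closest to Pecam1 were Sparc (0.98), Col4a1 (0.96) and Pdgfb (0.96). Col4a1, a chain of basement membrane collagen, was at 7.22, 21.6 and 4.72 TPM in WT non-tumours, 45.7, 41.2 and 26.5 TPM in WT tumours, 6.47, 4.26 and 3.59 TPM in GKO non-tumours and 84.6, 32.4 and 64.6 TPM in GKO tumours. GKO tumour 1 was the highest sample for Col4a1 and for Cd34, and WT non-tumour 2 was the highest non-tumour for both. Plvap was closest to Dync1li2 (0.93), Exo5 (0.93) and Marcks (0.92), none of them an endothelial marker, and Vwf to Krt19 (0.76), Gm9803 (0.75) and Rpl35a (0.72).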

How the data were processed

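RNA-seq values of 18 samples were analysed, with groups taken from the labels. The authors deposited TPM for 54838 genes (101 symbols listed more than once, 0 columns without a sample), made from reads aligned to mm10 by STAR 2.7.3a and assigned to genes by featureCounts 2.0.0. TPM times the exonic lengths of GENCODE M21 (54809 genes found) gave whole reads within 0.02 for 97.95% to 98.67% of values of up to 30 reads, which is the basis of the read totals. Whether counting used strand is not given in the sources used here. Exons of Stab1, Stab2, Clec4g, Fcgr2b and Cd34 overlap opposite-strand genes by 112, 141, 146, 155 and 148 bases, and such reads cannot be told apart without strand.

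The test was limma 3.58.1 in R 4.3.3 (lmFit, eBayes with trend) fitted to log2(TPM + 1). Genes entered if their mean reached 0.5 TPM in the samples compared, and a gene was called where the p-value adjusted by Benjamini and Hochberg was under 0.05. The procedure was checked on simulated data. Cd34 and Vwf fell below this mean in some comparisons and were not tested there. Exact permutation of 3 against 3 samples cannot go below p = 0.1 and was not used. The labels do not say how replicates were taken, so p-values measure the spread between these samples. The 10 genes were given in every comparison. From each other list the text names at most the 2 highest and 2 lowest called genes or, where none was called, may name its most abundant gene, and for each member the 3 genes of highest Pearson r. Some genes that this rule names are not reported here. Other genes were named after their values were seen. Members and lists were chosen with earlier results of these data known. A gene can be in more than one list. Tables used Python 3.11.15, numpy 2.4.6, pandas 2.3.3 and matplotlib 3.10.9. Alternatives tried: 0.1 as pseudocount, all genes without filter, a minimum of 5 TPM, quantile normalization, a single fit of all samples, voom on recovered reads, a replicate block, WT tumours 1 and 2 averaged, and leaving out each sample. List counts under quantile normalization, without each sample, without the filter and with WT tumours 1 and 2 averaged, and the interaction for DEN, were added after seeing the data.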

Additional observations from a re-analysis of the deposited data

How the results depend on the processing

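Of the values of single genes under the alternatives, 983 kept their direction and their side of the threshold, 5 lost a call, 4 gained one and 40 turned sign. The calls of Pecam1 and Cd34 in GKO tumours against GKO non-tumours kept their direction throughout. That contrast had 2 members called, 1 without a filter and 1 at a mean of at least 5 TPM, where Cd34 could not be tested, and 0 to 3 when single samples were left out. Without a filter the adjusted p of Cd34 from limma was 0.0687, and Plvap was called under quantile normalization (adjusted p = 0.0335) and in one fit of all samples (0.0101). In WT tumours against WT non-tumours 1 member was called in one fit of all samples, in place of 0. The cause of these differences was not tested.

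The number of all genes called moved more. For GKO against WT tumours it was 3, and 0 with a pseudocount of 0.1, no filter, voom, the replicate block or WT tumours 1 and 2 averaged, 78 in one fit of all samples and 0 to 147 leaving out single samples. For WT tumours against non-tumours it was 592, and 297 without a filter, 1533 in one fit of all samples, 361 with the replicate block, 185 with WT tumours 1 and 2 averaged and 163 to 1363 leaving out single samples. For GKO tumours against non-tumours it was 1652, and 589 without a filter, 1047 at 5 TPM, 2627 in one fit of all samples and 229 to 1567 leaving out single samples. For WT non-tumours against normal livers it was 1, and 4 with a pseudocount of 0.1, 0 without a filter, with voom or with the replicate block, 3 at 5 TPM, 3 in one fit of all samples and 0 to 4 leaving out single samples. For GKO non-tumours against normal livers it was 0, and 0 to 2 leaving out single samples. For the interaction of genotype and tumour it was 2, and 0 with a pseudocount of 0.1 or voom, 4 without a filter, 1 at 5 TPM, 12 in one fit of all samples and 2 to 91 leaving out single samples. For the interaction of genotype and DEN it was 0, and 2 without a filter and 0 to 2 leaving out single samples.

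Signs turned in members whose log2 fold change was not called. Leaving out single samples gave, for GKO against WT tumours, -0.36 to 0.07 for Stab1, -0.27 to 0.26 for Stab2, -0.57 to 0.75 for Lyve1, -1.22 to 0.58 for Clec4g, -0.995 to 0.023 for Fcgr2b and -0.92 to 0.24 for Oit3. For WT tumours against non-tumours it gave -0.054 to 0.28 for Stab2, -0.97 to 0.29 for Clec4g and -0.11 to 0.74 for Fcgr2b. For GKO tumours against non-tumours it gave -0.27 to 1.05 for Lyve1, -0.82 to 0.34 for Oit3 and -0.20 to 0.061 for Vwf, and voom gave -0.027 for Lyve1. For GKO against WT non-tumours it gave -0.21 to 0.55 for Lyve1 and -0.039 to 0.74 for Oit3, and for normal livers -0.47 to 0.27 for Lyve1. For WT non-tumours against normal livers it gave -0.063 to 0.88 for Stab1, -0.089 to 1.17 for Clec4g and -0.19 to 0.67 for Fcgr2b, while quantile normalization gave -0.018 for Stab1, -0.061 for Stab2 and -0.23 for Fcgr2b, and voom -0.12 for Fcgr2b. For GKO non-tumours against normal livers it gave -0.17 to 0.41 for Plvap and -0.070 to 0.20 for Pecam1, and quantile normalization -0.019 for Pecam1. The interaction of genotype and tumour of Lyve1 ran from -0.80 to 0.52.

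Replicate numbers were not taken as pairs, since the labels do not say which samples shared a mouse. In no comparison did all 3 same-numbered pairs correlate above 0.1. For GKO against WT tumours, which come from different mice, the correlations were 0.0998, 0.116 and 0.194. Tumours and non-tumours, which could share a mouse, gave 0.0063, -0.0091 and 0.245 in WT. In GKO they gave 0.119, 0.069 and 0.041. Such values do not show whether samples shared a mouse. With the replicate block, 361 genes were called in WT and 1436 in GKO tumours against non-tumours, and the same 2 members, Cd34 (adjusted p = 0.0305) and Pecam1 (0.0198), were called in GKO by limma. Cd34, at 0 to 3 reads in some livers, is the member most limited by depth.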
